A study of Mus musculus with 6 samples.

Results

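The HoxD cluster is a run of 9 homeobox genes on mouse chromosome 2, which lie in the order Hoxd1, Hoxd3, Hoxd4, Hoxd8, Hoxd9, Hoxd10, Hoxd11, Hoxd12 and Hoxd13 from the 3' to the 5' end. The genes were chosen by name, and every probe set that the platform annotation pairs with any of them was read. There were 12 such probe sets among 45101. Of these, 10 named a single gene and covered 8 of the 9 members, among 18193 genes represented in the same way. Hoxd4 had no probe set of its own, because the other 2 probe sets are listed for both Hoxd4 and Hoxd3.

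Transcripts were measured in forelimb buds of CD1 mouse embryos at E10.5, divided into a distal and a proximal part, with 1 Affymetrix array for each part in each of 3 conditions. The double knockout (dKO) is labelled Prx1-Cre; Ring1A-/-; Ring1Bfl/fl. The RA condition is wild type, with all-trans retinoic acid (RA) given to the mother by gavage at E10.25 at 100 mg/kg. The control is labelled Ring1A-/- by genotype, while its description calls it WT, so by genotype the control and dKO share the loss of Ring1A, and RA and control differ in both treatment and Ring1A. Prx1-Cre is active in limb mesenchyme and not in the covering ectoderm, so dKO buds can keep Ring1B in part of their cells. The labels do not say how many embryos went into an array. The values are MAS5 signals on a linear scale.

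Hox genes encode DNA-binding homeodomain proteins that give positions along the body and the limb their identity. In a cluster, genes at the 3' end are generally switched on earlier and more widely than genes at the 5' end. In the early limb bud the HoxD genes of the 5' end become restricted to the posterior and distal mesenchyme, where they act in forearm and digit formation. RING1A and RING1B are the ubiquitin ligases of Polycomb repressive complex 1 (PRC1), which holds silent Hox genes in compact chromatin. RA is a signal from the trunk that activates genes at the 3' end of Hox clusters in the body axis.

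Each combination of part and condition has 1 array, so no difference between single arrays has a replicate check. The only test is a limma fit with condition and part as additive terms. It asks whether an effect is alike in the pairs of arrays, and its residual has 2 degrees of freedom. "Rose" and "fell" are used for a gene past an adjusted p of 0.05 in that fit, and "higher" and "lower" for differences between arrays. A signal below the median of its array, 59.5 to 76.1, was set to that median (the floor), and log2 values were formed afterwards. A gene was counted as measured in a comparison when it was above the floor on at least 1 of the arrays compared. A difference from a floored array is a bound.

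The arrays were not alike in other respects. The proximal RA array correlated with the other 5 at 0.927 to 0.951 over 12147 genes, against 0.986 between the dKO arrays and 0.985 between the control arrays. In the proximal RA array 425 genes were 2-fold higher and 783 lower than in proximal control. Xist signals were at most 29.5 on both RA arrays and at least 3017 on the other 4, and those of the Y-linked Eif2s3y were 2783 or more in RA and did not exceed 12.3 elsewhere. The hybridization control BioB gave 102 and 111 in distal and proximal RA, 904 and 939 in dKO and 775 and 799 in control. RA therefore cannot be told apart from embryo sex or from this technical difference. Ring1, which encodes RING1A, gave signals of 578 and 402 in distal and proximal dKO, 245 and 419.8 in RA and 968 and 624 in control. No source used here says where its probes lie relative to the deleted part, so these signals do not check the deletion. The same holds for Rnf2, which encodes RING1B, with 1887 and 2147 in dKO, 2085 and 1941 in RA and 2070 and 2042 in control (limma dKO effect -0.03, adjusted p = 0.9996). Against control, the Rnf2 signal was slightly lower in distal dKO and slightly higher in proximal dKO.

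The 3 genes on which the results turn are Hoxd1, Hoxd11 and Hoxd13. Their upstream sequences are shown because Polycomb-bound Hox genes are known for promoters rich in CpG dinucleotides. Each sequence is the 250 bases before a RefSeq start on the plus strand of GRCm38.p6, with every CG in capitals. The positions are chr2:74762730-74762979 for Hoxd1, chr2:74679308-74679557 and chr2:74682073-74682322 for the first and the second listed start of Hoxd11, and chr2:74667975-74668224 for Hoxd13.
Hoxd1: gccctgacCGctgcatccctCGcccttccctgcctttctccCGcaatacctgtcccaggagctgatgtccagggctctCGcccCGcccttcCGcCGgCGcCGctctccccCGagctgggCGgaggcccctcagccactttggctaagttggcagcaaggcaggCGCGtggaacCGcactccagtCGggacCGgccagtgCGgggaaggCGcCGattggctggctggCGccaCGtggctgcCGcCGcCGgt
Hoxd11 first start: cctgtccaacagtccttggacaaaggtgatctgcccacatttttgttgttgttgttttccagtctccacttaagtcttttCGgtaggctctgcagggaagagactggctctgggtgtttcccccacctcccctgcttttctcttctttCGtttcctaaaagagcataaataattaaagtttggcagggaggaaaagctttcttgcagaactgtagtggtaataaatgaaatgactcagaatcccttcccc
Hoxd11 second start: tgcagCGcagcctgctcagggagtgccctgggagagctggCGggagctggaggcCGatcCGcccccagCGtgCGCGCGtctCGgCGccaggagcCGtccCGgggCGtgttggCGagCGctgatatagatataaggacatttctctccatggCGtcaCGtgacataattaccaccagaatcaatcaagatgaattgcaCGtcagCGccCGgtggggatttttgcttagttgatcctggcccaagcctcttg
Hoxd13: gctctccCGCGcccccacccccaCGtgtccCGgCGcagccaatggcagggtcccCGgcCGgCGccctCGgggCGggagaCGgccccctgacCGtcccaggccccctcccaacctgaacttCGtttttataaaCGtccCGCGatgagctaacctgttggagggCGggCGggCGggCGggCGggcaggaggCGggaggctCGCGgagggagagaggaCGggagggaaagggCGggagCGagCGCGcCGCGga
These stretches hold 24, 2, 20 and 31 CG dinucleotides, in the order printed. The second start of Hoxd11 lies within the listed extent of the gene, so that stretch is upstream of that start only.

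Over the full RefSeq windows of 300 bases, which also take in the first 50 bases of the gene, the 10 HoxD starts differed widely. Hoxd13 had 37 CG dinucleotides and a GC content of 74.3%, Hoxd1 had 29 and 69.7%, and the second Hoxd11 start had 25 and 62.0%. The median of 32851 windows was 7 CG and 52.7% GC. Hoxd4 and the first Hoxd11 start had 4 CG each, and Hoxd8 had 6, below that median. The letters AGGTCA, a half-site of the RA receptor, were on either strand of 4 HoxD windows, those of Hoxd3, Hoxd4, Hoxd8 and Hoxd10. Of all windows, 16.3% hold them. TGACAG, the core of the MEIS site, was in 0 HoxD windows and in 19.2% of all windows. Neither set of letters was found in the windows of Hoxd1, Hoxd11 or Hoxd13.

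The 3' end of the cluster was weakly detected. Hoxd1, which is active in the early trunk and in sensory neurons, had signals of 189 and 184 in distal and proximal dKO, 17.0 and 56.2 in RA, and 17.9 and 27.4 in control. Both dKO arrays stood above their floors and the other 4 below theirs. Hoxd3, a gene of the neck and hindbrain region, had signals of 223 and 397 in distal and proximal dKO, 149 and 374 in RA, and 124 and 273 in control. It was above the floor on all 6 arrays, and in every condition the proximal signal was the higher.

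Hoxd4, which patterns the upper neck, could be read only together with Hoxd3. The brighter of the shared probe sets had signals of 177 and 244 in distal and proximal dKO, 145 and 246 in RA, and 194 and 226 in control. The dimmer had 66.8 and 70.2 in dKO, 39.8 and 82.8 in RA, and 55.7 and 96.8 in control, and exceeded the floor on 2 arrays. The brighter set was the lower distally in every condition, as was the probe set of Hoxd3 alone.

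The middle of the cluster carried bright signals on every array. Hoxd8, a gene of broad trunk expression, had 3055 and 2983 in distal and proximal dKO, 3921 and 2344 in RA, and 3560 and 3430 in control. Its second probe set had 1483 and 1402 in dKO, 2245 and 1274 in RA, and 1933 and 2033 in control. The RA arrays were the extremes of both sets, the distal highest and the proximal lowest. Hoxd9, which acts in the upper arm, had 8314 and 9045 in dKO, 9385 and 9734 in RA, and 8220 and 9051 in control. Its highest signal was less than 1.2 times its lowest. Hoxd10, which acts in the arm and in limb innervation, had 4198 and 3180 in dKO, 5950 and 3527 in RA, and 5450 and 4547 in control, each time higher distally.

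The genes of the 5' end varied widely in level. Hoxd11, which with its HoxA paralogue builds the forearm, had signals of 439 and 233 in distal and proximal dKO, 933 and 331 in RA, and 1875 and 1032 in control. Both dKO signals and the proximal RA signal lay below every other array, and the control arrays were the highest of their part. Hoxd13, the digit gene at the end of the cluster, had 2030 and 2521 in dKO, 2037 and 700.4 in RA, and 4035 and 1247 in control. The distal control array was the highest of the 6 and the proximal RA array the lowest. A further Hoxd13 probe set stayed below the floor on all 6 arrays, at signals of 1.98 to 24.1, and gave no measurement. Hoxd12, a digit gene that acts beside Hoxd13, was close to the floor, with 25.5 and 8.60 in dKO, 73.9 and 63.5 in RA, and 91.8 and 46.5 in control. It was above the floor on 3 arrays, both RA arrays and the distal control array.

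**Figure D1:**
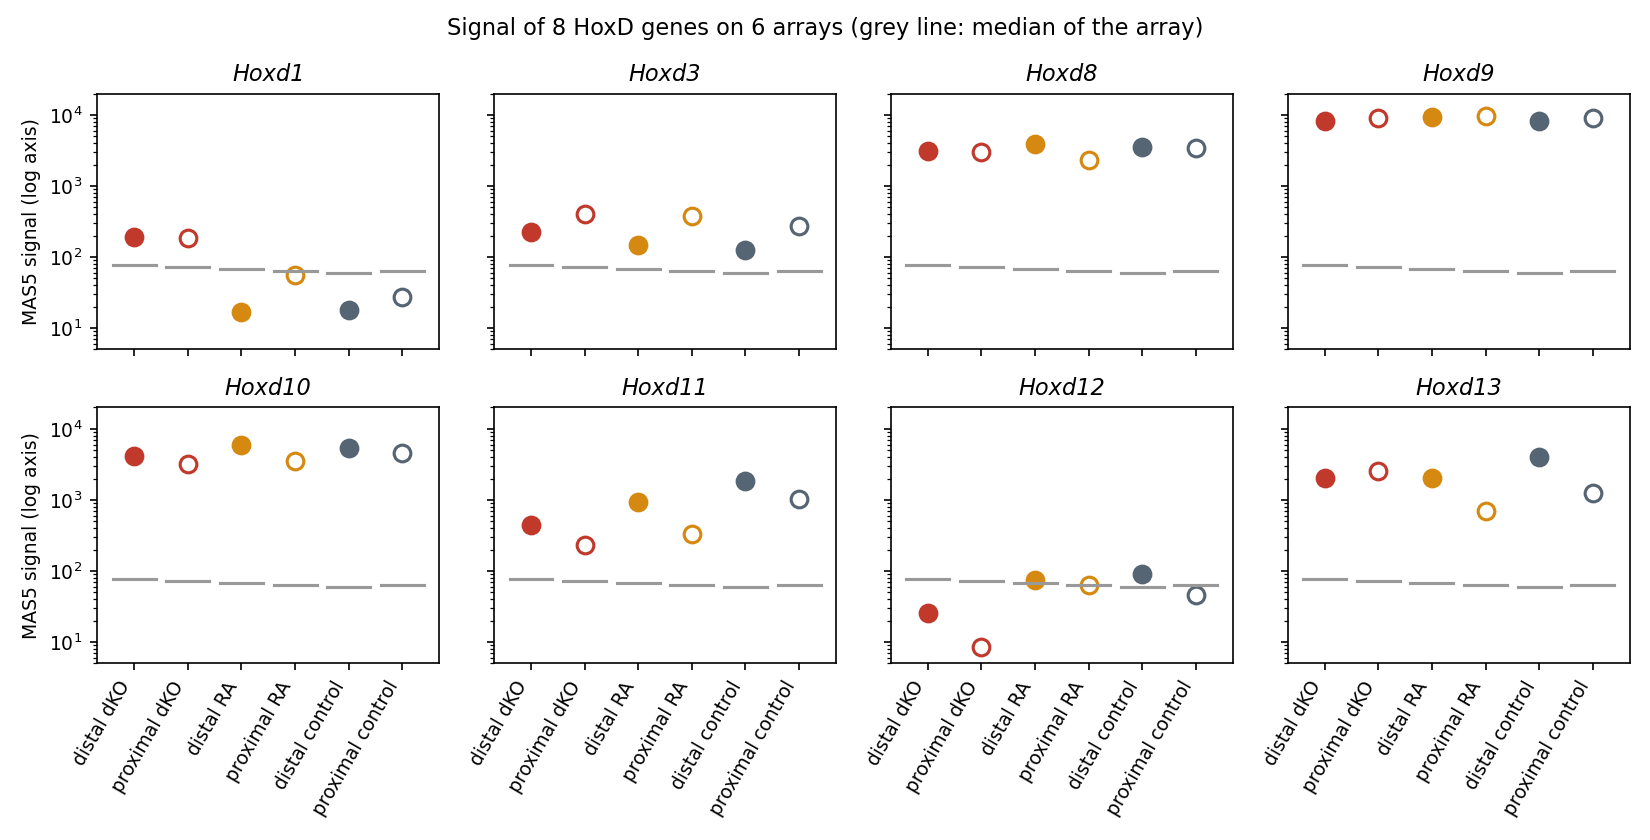
MAS5 signal on a log axis for 8 HoxD genes, with filled points for distal and open points for proximal arrays, 1 point per array, and a grey line at the median of each array (its floor). Hoxd1 is above the line only in dKO (189 and 184), and Hoxd9 is nearly level at 8220 to 9734. Within each part Hoxd11 is lowest in dKO (439 distally and 233 proximally) and highest in control (1875 and 1032).

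The first comparison asks which HoxD genes separate the distal from the proximal bud. In control, Hoxd13 was higher distally by log2 1.69, a 3.24-fold difference, and Hoxd3 was lower distally by log2 -1.14. These were the 2 of 7 measured members at 2-fold or more, 1 higher and 1 lower, against 1.4% higher and 1.35% lower among 11391 genes. Only 34 of those genes had a distal excess as large as that of Hoxd13. Hoxd11 was higher distally by log2 0.86 and Hoxd12 by at least 0.52. Hoxd10 (0.26), Hoxd8 (0.05) and Hoxd9 (-0.14) differed little.

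Between Hoxd3 and Hoxd13 the distal excess in control grew toward the 5' end, except that Hoxd9 lay below Hoxd8 and Hoxd12 is known only by its bound. With a mean over probe sets, which takes in a Hoxd13 set below the floor, Hoxd13 (0.80) lay below Hoxd11 (0.86). The median over the 7 members was log2 0.26, and that of all genes 0.00. RA buds held the same order at the ends of the cluster. Hoxd13 was higher distally by 1.54 and Hoxd11 by 1.49, and Hoxd3 lower by -1.33. Hoxd10 and Hoxd8 were higher distally by 0.75 and 0.74. At 2-fold or more were 3 of 7 members, 2 higher and 1 lower, against 6.16% higher and 4.4% lower among all genes.

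In dKO buds 0 of 7 measured members reached 2-fold between the parts in either direction, against 0.722% higher and 0.515% lower among all genes. Hoxd11 kept a distal excess of log2 0.91, Hoxd10 one of 0.40 and Hoxd3 a deficit of -0.83. Hoxd13 did not follow: its distal signal was the lower (-0.31), where control had 1.69. Hoxd1, measured between parts in dKO alone, had nearly the same signal distally and proximally (log2 0.03).

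The additive limma fit called 0 of 8 HoxD genes for position, and 0 of 12147 genes in all (0%). At an unadjusted p under 0.05 were 4 HoxD genes, with 1156 genes in all (9.52%). The largest effects were those of Hoxd3 (log2 -1.10, SE 0.20, adjusted p = 0.159), Hoxd11 (1.09, SE 0.20, adjusted p = 0.154) and Hoxd13 (0.97, SE 0.37, adjusted p = 0.489). Hoxd11 and Hoxd3 were each on the same side in 3 of 3 conditions and Hoxd13 in 2 of 3. Without the dKO arrays the position effect of Hoxd13 was 1.62 with a limma adjusted p of 3.8e-07, and 3 HoxD genes were called. Without the RA arrays Hoxd11 and Hoxd3 were called. Only 1 residual degree of freedom is left in these fits, and the fit without dKO leaves out the arrays where Hoxd13 goes the other way and takes the pooled variance as known (infinite prior degrees of freedom), so its p-values can be far too small.

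**Figure D2:**
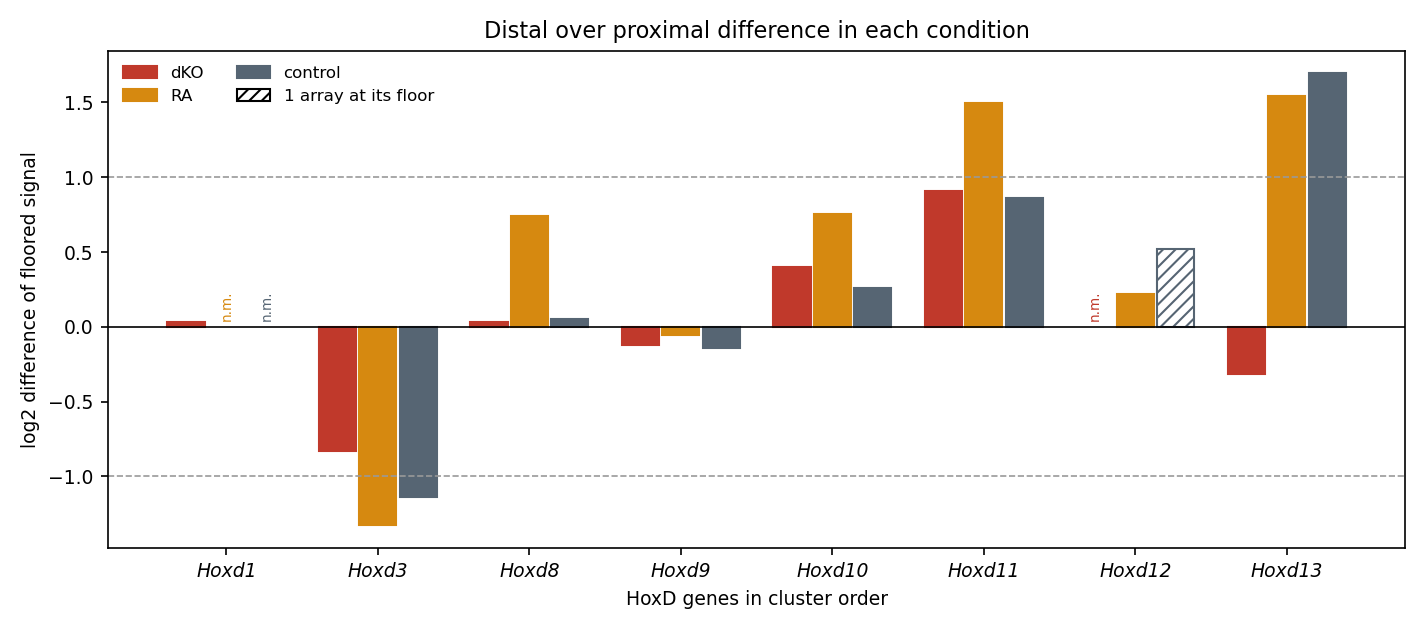
Log2 difference of floored signal, distal over proximal, for 8 HoxD genes in cluster order, with bars for dKO, RA and control, hatched where 1 array is at its floor, n.m. where neither array is above it, and dashed lines at 2-fold. Hoxd13 is 1.54 and 1.69 in RA and control and -0.31 in dKO, while Hoxd3 is below 0 and Hoxd11 above 0 in all 3 conditions.

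Markers of other tissues also differed between the parts. The summed signal of 9 surface ectoderm markers was 13950 distally and 9533 proximally in dKO, 10040 and 7318 in RA, and 14640 and 8375 in control. The sums of muscle precursor markers went the other way, with 2464 and 5686 in dKO, 855 and 4094 in RA, and 1243 and 4000 in control (4 or fewer of 6 were above the floor on each array). Not every member followed its sum. In RA Krt5 (421 and 439), Krt14 (105 and 121) and Krt18 (2814 and 2934) were lower distally, and Pax7 was higher (151 and 62.5). In RA 1 of 9 ectoderm markers was 2-fold higher distally and 0 lower, and 1 of 5 muscle markers was higher and 3 lower (6.16% and 4.4% of all genes). The 8 limb mesenchyme markers, all above the floor everywhere, summed to 21990 and 22330 in dKO, 19110 and 14680 in RA, and 22860 and 25320 in control. In these mixed tissues fewer cells expressing a gene and less RNA per cell cannot be told apart. The part of these tissues in the HoxD differences was not tested.

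The second comparison sets dKO against control, which by genotype differ in Ring1B and the Cre. Hoxd11 was lower in both parts, by log2 -2.10 distally and -2.15 proximally, 4.27- and 4.42-fold lower than control. Hoxd1, below the floor in control, was at least 3.17-fold higher distally and at least 2.88-fold higher proximally. The middle genes Hoxd8, Hoxd9 and Hoxd10 stayed within log2 -0.52 to 0.02 of control.

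In the additive limma fit these were the 2 calls among 8 HoxD genes, 1 higher and 1 lower, against 2.33% of 12147 genes (2.21% higher and 0.115% lower). At an unadjusted p under 0.05 were 4 of 8, with 11.6% of all genes. Hoxd11 had an effect of log2 -2.12 (SE 0.24, adjusted p = 0.0116), lower in 2 of 2 parts. Hoxd1 had a fitted value of 1.60 (SE 0.18, adjusted p = 0.0111). It entered the fit only through the dKO arrays, where it is high, and its other 4 values are floors, so this call follows from the filter and is no support for a difference. The call was lost without a floor (adjusted p = 0.0704) or with the floor at the 25th percentile (0.0567). Across genes, 10 of 11646 had a distal difference as low as that of Hoxd11, and 6 of 11580 a proximal difference as low.

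The distal arrays had 2 of 8 measured members at 2-fold or more, 1 higher (Hoxd1) and 1 lower (Hoxd11), against 5.32% higher and 0.524% lower among all genes. The proximal arrays had 3 of 7, with Hoxd1 and Hoxd13 higher and Hoxd11 lower, against 4.07% higher and 0.363% lower. The member medians were log2 -0.25 distally and 0.00 proximally, and those of all genes 0.01 and 0.02.

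Hoxd13 went in opposite directions in the parts. It was lower in distal dKO (log2 -0.99) and higher in proximal dKO (1.02), so that the effects differed by -2.01 between the parts. Of 11348 genes measured in both parts, 15 had effects that differed as much, 0.132%. The additive fit averages the parts and gave Hoxd13 an effect of 0.01 (SE 0.46, adjusted p = 0.9996). The difference between the parts could not be tested with 1 array each. For the other members measured in both parts it was at most 0.31.

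Hoxd3 was higher in dKO by log2 0.85 distally and 0.54 proximally (limma 0.69, SE 0.25, adjusted p = 0.316). Hoxd10 was lower by -0.38 and -0.52 (limma -0.45, SE 0.16, adjusted p = 0.341). Neither passed the threshold with all 6 arrays. Both passed without the RA arrays (adjusted p = 0.0351 for Hoxd3 and 0.00293 for Hoxd10), where 1 residual degree of freedom is left. The probe sets shared by Hoxd4 and Hoxd3 did not share the direction of Hoxd3 in both parts: the brighter differed by -0.13 distally and 0.11 proximally. Hoxd12 was below the floor in dKO in both parts, and its distal difference from control was a bound of -0.27. Markers of other tissues also differed in dKO. For neural markers the summed signal was 1307 and 1406 in distal and proximal dKO, 359.9 and 399.9 in RA, and 542 and 611 in control, with Nefl and Nefm called by limma in dKO (4 of 5 listed genes with a probe set exceeded the floor on each dKO array, and Sox10 on none). Of the 4 measured, 3 were 2-fold higher distally and 2 proximally, with 0 lower, and Tubb3 had 182 in distal dKO and 265.5 in distal control. Nefm was below the floor on both RA arrays and the distal control array, so its fitted value rests partly on floors. Muscle precursor markers were 2-fold higher in 3 of 4 distally and 1 of 5 proximally. Those of somite and body wall were higher in 2 of 5 in each part, with 1 lower proximally. Pax9 was called by limma but was below the floor on the RA and control arrays, so its call follows from the filter. The shares of all genes in dKO were 5.32% higher distally and 4.07% proximally, with 0.524% and 0.363% lower. The part of these tissues in the HoxD differences from control was not tested.

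The third comparison sets RA against control, with the same control arrays as the dKO comparison. Hoxd11 was lower by log2 -1.01 distally and -1.64 proximally, 2.01- and 3.12-fold. Hoxd13 was lower by -0.99 and -0.83, in both parts. Hoxd1 was below the floor in RA and control alike and was not measured. In each part Hoxd11 was the only member at 2-fold or more: 1 of 7 lower and 0 higher distally, against 2.13% lower and 2.16% higher among all genes, and 1 of 7 lower and 0 higher proximally, against 6.8% and 3.69%. The distal count turns on small differences: under quantile normalization Hoxd11 was at -0.962 and Hoxd13 at -1.003, so that Hoxd13 was the member at 2-fold.

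The limma fit called 0 of 8 HoxD genes for RA, against 0.543% of genes, and 1 HoxD gene had an unadjusted p under 0.05, against 16.7% of genes. That gene was Hoxd11 (log2 -1.32, SE 0.24, adjusted p = 0.0792), lower in 2 of 2 parts. Without the proximal RA array, which stood apart, the effect of Hoxd11 was -1.02, with 1 RA array left. Without the dKO arrays it was -1.32 with a limma adjusted p of 0.00137. Hoxd13 had an effect of -0.91 (SE 0.46, adjusted p = 0.36), and passed the threshold without the dKO arrays (adjusted p = 0.0214). The fit without the dKO arrays has 1 residual degree of freedom and takes the pooled variance as known (infinite prior degrees of freedom). It calls 537 genes for RA, where the full fit calls 66, so its p-values can be far too small.

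The other members stayed under 2-fold in RA. Hoxd3 differed by log2 0.27 distally and 0.45 proximally, and Hoxd9 by 0.19 and 0.10. Hoxd8 and Hoxd10 had distal values of 0.14 and 0.13 and proximal values of -0.55 and -0.37. The distal values of Hoxd8, Hoxd9 and Hoxd10 turned below 0 when each array was divided by its median (-0.06, -0.01 and -0.07). The second Hoxd8 probe set gave 0.22 and -0.67. Hoxd12 was lower distally by -0.31, and its proximal values allow no fold. The member medians were 0.13 distally and -0.37 proximally, and those of all genes -0.04 and 0.01. In the proximal RA array the limb mesenchyme markers summed to 14680, the lowest of the 6 arrays, and somite and body wall markers (4 of 6 above the floor there) to 6883, the highest (others 697 to 2500). Of the 8 limb mesenchyme markers 2 were 2-fold lower there than in proximal control and 0 higher (6.8% and 3.69% of all genes). They were Lhx9 (982 against 4192) and Msx1 (1013 against 3115), while Prrx1 had 5750 against 6876. The part of these differences in the lower proximal Hoxd11 and Hoxd13 was not tested.

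**Figure D3:**
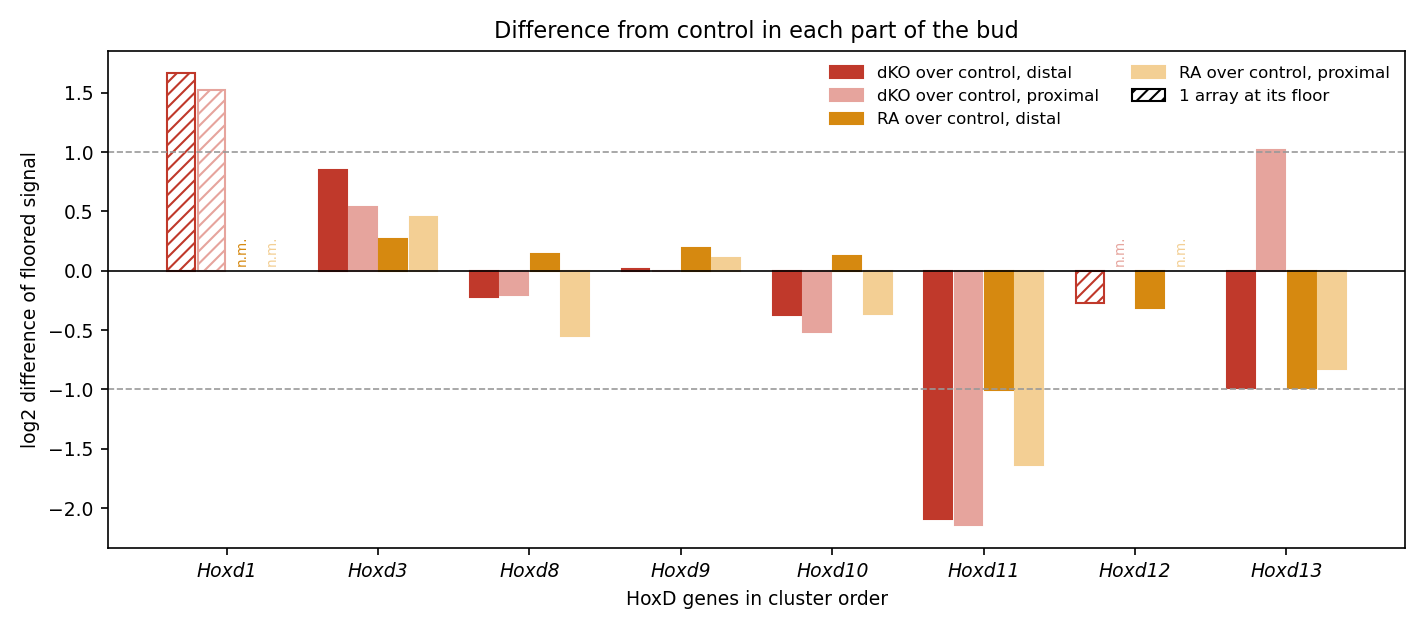
Log2 difference of floored signal from control for 8 HoxD genes in cluster order, with dark bars for distal and light bars for proximal, hatched where 1 array is at its floor, n.m. where no fold could be given, and dashed lines at 2-fold. Hoxd11 is below 0 in all 4 comparisons (-2.10 and -2.15 in dKO, -1.01 and -1.64 in RA), and Hoxd13 is above 0 only in proximal dKO (1.02).

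**Figure D4:**
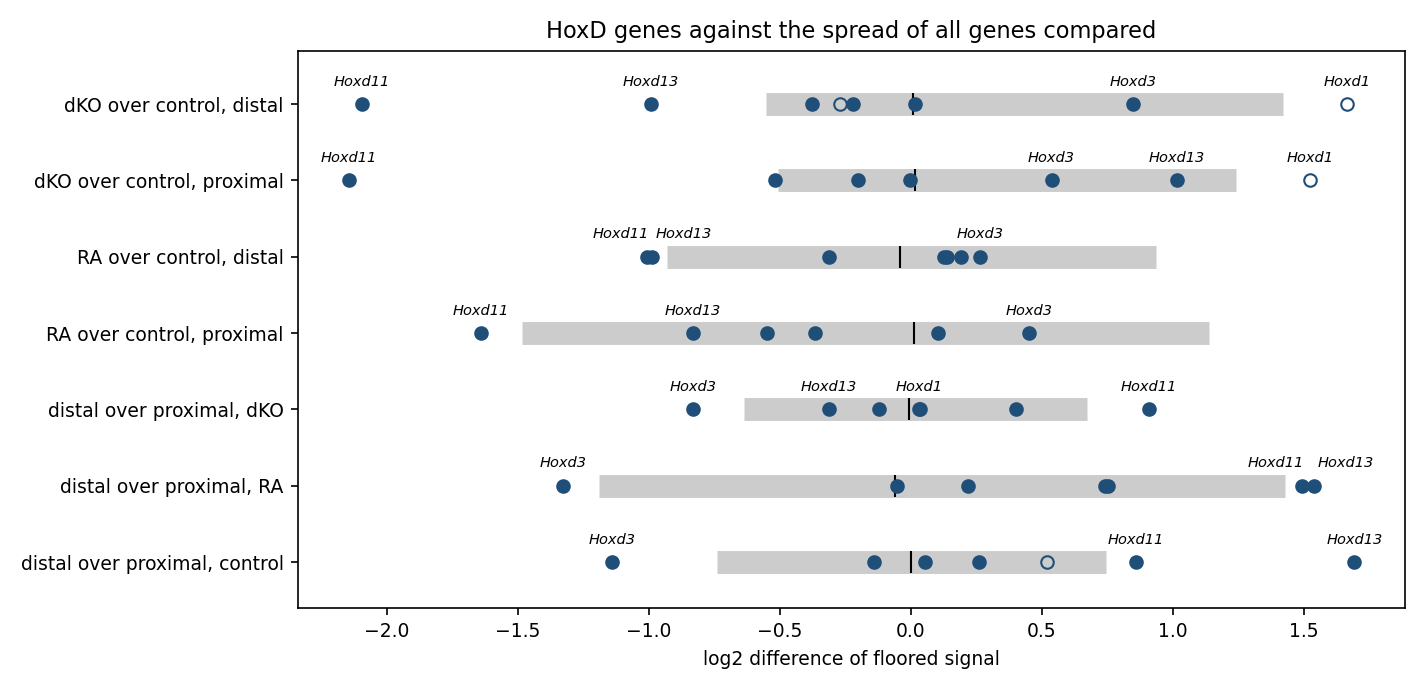
Log2 differences of the measured HoxD genes (points, open where 1 array is at its floor) in 7 comparisons, over grey bars that span the central 95% of all genes compared, with the median as a black tick. Hoxd11 lies outside the bar in all 7 comparisons, and in the dKO comparisons, where the bars reach down to -0.55 and -0.51, it lies at -2.10 and -2.15.

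Genes related to HoxD were read in the same way, from lists chosen with earlier results of these data known. The Hox genes of groups 9 to 13 in the other clusters are paralogues of the HoxD genes from Hoxd9 on. In dKO 5 of 8 were higher distally with 1 lower, and 4 of 8 proximally with 0 lower (medians log2 1.5 and 1.4). Among all genes 5.32% were 2-fold higher distally and 4.07% proximally, with 0.524% and 0.363% lower. In limma 5 of 8 passed as higher and 0 as lower, against 2.21% and 0.115% of all genes. Of the 5, Hoxb13 and Hoxc13 were below the floor on the RA and control arrays alike. Like Hoxd1 they entered the fit only through dKO arrays, so their calls follow from the filter and are no support for a difference. Hoxc10 was below the floor on the proximal control array, so its fitted value rests partly on a floor. Hoxc10 (3.02, SE 0.21, adjusted p = 0.00343), Hoxb9 (2.78, adjusted p = 0.00551) and Hoxc9 (2.35, adjusted p = 0.0163) had the largest effects. All 5 are HoxB or HoxC genes. The HoxA genes in the fit had effects of -0.19 (Hoxa9), -0.86 (Hoxa10) and -0.89 (Hoxa11), and a difference between clusters was not tested. The paralogue of Hoxd11 in the HoxA cluster, Hoxa11, had signals of 1250 in distal dKO and 2561 in distal control (log2 -1.03; limma -0.89, adjusted p = 0.173).

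In RA 0 of 6 of these paralogues were 2-fold higher or lower distally. Proximally 2 of 5 were lower, Hoxa10 by -1.33 and Hoxa11 by -1.26, and 0 higher, against 6.8% lower among all genes. There were 0 limma calls of 8, with 2 at an unadjusted p under 0.05 (16.7% of all genes). Genes of groups 1 to 8 in the other clusters were higher in dKO in 9 of 15 distally and in 1 of 15 proximally. The numbers lower were 0 and 1. Among all genes 5.32% and 4.07% were higher, and 0.524% and 0.363% lower. In RA these genes were higher in 5 of 13 distally and 6 of 15 proximally, with 0 lower. The shares of all genes higher in RA were 2.16% and 3.69%. Hoxb3, the HoxB paralogue of Hoxd3, was higher distally by 2.64 in dKO and 2.97 in RA. In limma 1 of these 15 rose in dKO (Hoxc8) and 0 changed in RA, against 2.33% and 0.543% of all genes. At an unadjusted p under 0.05 were 5 and 6 (11.6% and 16.7% of all genes).

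The genes flanking the cluster were read as well. Of 7 neighbours on the array 0 of 6 measured were 2-fold in dKO in either part. Among all genes 5.32% were higher distally and 4.07% proximally, so few would be reached by so small a set. Limma called 0 of 7 in dKO or RA (2.33% and 0.543% of all genes). At an unadjusted p under 0.05 were 1 and 0 (11.6% and 16.7% of all genes). Mtx2, a mitochondrial import gene beyond Hoxd1, differed by 0.26 and 0.07 in distal and proximal dKO. Evx2, the homeobox gene beyond Hoxd13, was above the floor on the proximal RA array alone, with a signal of 71.5. Lnpk, beyond Evx2, had signals of 541 in proximal RA and 183 in proximal control (log2 1.57), and 269 and 276.5 distally, where it did not differ by 2-fold (limma 0.76, adjusted p = 0.37).

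SHH, made by the posterior bud, and the ridge growth factors are tied to 5' HoxD genes in a loop of mutual support. Of 12 such genes 6 were lower in distal dKO and 0 higher (median log2 -1.0), with Fgf4 at 104 in dKO and 2141 in control. Shh had 57.6 in dKO, below the floor, and 1099 in control, so its difference is a bound. In proximal dKO 1 of 11 was lower and 1 higher. In RA 3 of 12 were lower distally and 4 of 11 proximally, with 0 higher. In limma 0 of 12 changed in dKO or RA (2.33% and 0.543% of all genes), with 6 and 3 at an unadjusted p under 0.05 (11.6% and 16.7% of all genes). Of all genes 0.524% were 2-fold lower in distal dKO, 0.363% in proximal dKO, 2.13% in distal RA and 6.8% in proximal RA. Of the TALE cofactors that bind DNA with HOX proteins, 4 of 8 were higher and 0 lower in distal dKO, among them Meis1 (1.53) and Meis2 (1.03), and 2 of 8 were higher proximally, led by Pknox2 (2.33). In distal RA Meis2 was higher (1.64) and Pknox2 lower (a bound of -1.62), and in proximal RA 1 of 8 was higher. No TALE gene passed limma in dKO or RA (2.33% and 0.543% of all genes), with 3 and 2 of 8 at an unadjusted p under 0.05 (11.6% and 16.7% of all genes). Of all genes 5.32% were 2-fold higher in distal dKO, 4.07% in proximal dKO, 2.16% in distal RA and 3.69% in proximal RA.

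Of the Polycomb genes 0 of 21 measured were 2-fold in dKO in either part. In RA 1 was lower distally and 0 proximally. The shares of all genes were 5.32% higher in distal dKO and 4.07% in proximal dKO, and 2.13% lower in distal RA and 6.8% in proximal RA. Bmi1 alone rose in limma in dKO, and 0 changed in RA, against 2.33% and 0.543% of all genes. At an unadjusted p under 0.05 were 2 of 21 in dKO (11.6% of all genes) and 3 in RA (16.7% of all genes).

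Across the 6 arrays the members above the floor throughout did not vary together as a block. Over log2 signal Hoxd3 and Hoxd10 had a Pearson r of -0.94 and Hoxd3 and Hoxd11 one of -0.85. Hoxd10 and Hoxd11 had 0.89 and Hoxd8 and Hoxd10 0.83, while Hoxd11 and Hoxd13 had 0.41. Arrays of the same part or condition are not independent, so these values only describe the 6 arrays.

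The genes most like each member in pattern were sought among 3252 genes that spanned at least 2-fold. Hoxd1 was closest to Kdelr3 (r = 0.9994), Slc45a3 (0.9985) and Pou3f3 (0.9985), which are all highest in dKO; the floors set part of this likeness, since Hoxd1 is floored on 4 arrays. Hoxd11 was closest to Gja3 (0.95), Gpx2 (0.95) and 4933412E12Rik (0.95). Gja3, a lens connexin, had signals of 227 and 66.2 in distal and proximal dKO, 306 and 69.7 in RA, and 1300 and 336 in control. Hoxd13 was closest to Jazf1 (0.97), Plek (0.97) and Gbx2 (0.96). Gbx2, a homeobox gene of the hindbrain border, had 108 and 114 in dKO, 104 and 13.3 in RA, and 162.5 and 26.9 in control, above the floor on 4 arrays.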

How the data were processed

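The deposited table holds signal intensity on a linear scale from MAS5, per the submitters' processing notes (no source used here gives a version). Trimmed by 2% of probe sets at either end, every array averages 499.9, so the arrays were scaled to a common mean. It holds no detection calls. Of 45101 probe sets, 34945 had a single gene symbol in the platform annotation, and 34741 of these matched a RefSeq gene ID. Where a gene had several probe sets, the brightest by mean log2 signal stood for it. Signals below the array median were raised to it, and differences were counted at 2-fold or more. The limma fit (limma 3.58.1 in R 4.3.3, trended prior variance, Benjamini-Hochberg adjustment) covered the 12147 genes that exceeded the floor on 1 array or more, had condition and part as terms and was tested on simulated data. The simulated data had normal noise, effects alike in both parts and no floored values, so that test does not cover floored genes or effects that differ between parts. With 2 residual degrees of freedom its p-values rest largely on the variance pooled over genes (4.64 prior degrees of freedom). Where several arrays sit at the floor, the equal values can make a p too small. Alternatives were other scalings, floors, filters, a mean over probe sets and fits without some arrays. The members and lists were chosen with earlier results of these data known. All HoxD probe sets are reported. From other lists up to 3 members with the largest difference in a comparison are named, with paralogues and neighbours of members named beside them after their values were seen. The number of arrays limits the precision. Promoter sequences are from RefSeq (GRCm38.p6), and all 9 genes had an entry. Homeodomain sequences, planned for display, were not used here.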

Additional observations from a re-analysis of the deposited data

Results flagged for a closer look

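HoxD genes whose difference from control went in opposite directions in the distal and the proximal part are listed here, with the distal minus the proximal log2 effect. With 1 array in each group these differences were not tested. Hoxd13 in dKO had the widest, -2.01, from -0.99 distally and 1.02 proximally. In RA the value was 0.69 for Hoxd8, from 0.14 and -0.55, and 0.49 for Hoxd10, from 0.13 and -0.37. These RA values rest on the proximal RA array, and 26.2% and 41.8% of 11087 genes had effects that differed at least as much. For Hoxd9 in dKO it was 0.02 (0.017), from 0.02 and 0.00, where 94.5% of 11348 genes differed at least as much.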

How the results depend on the processing

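No value of a HoxD gene at 2-fold or more changed direction under another scaling, floor or probe set rule, and no limma call did. Dividing each array by its median shifted the median of all genes in distal dKO against control by -0.35 (proximal -0.17, distal RA -0.24), so differences there are best read against it. The share of 2-fold genes that were higher in distal dKO was then 62.6%, against 91.0% as reported. That share was 27.3% against 50.3% in distal RA, and between distal and proximal it was 44.4% against 58.3% in dKO, 42.4% against 58.3% in RA and 61.3% against 50.8% in control. Quantile normalization gave 47.9% between the RA parts. The HoxD median turned to -0.07 in distal RA and to -0.03 between the dKO parts under division by the median, and values of Hoxd8, Hoxd9 and Hoxd10 near 0 changed sign with the scaling. Under that scaling 2 HoxD genes were 2-fold in distal RA in place of 1 (both lower, Hoxd13 at -1.18), and Hoxd13 in proximal dKO was at 0.82. In distal dKO 3 were then 2-fold in place of 2, with Hoxd13 also lower, at -1.35. With the floor at the 25th percentile 2 were 2-fold in proximal RA in place of 1, and 4 in proximal dKO in place of 3. With that floor or none, 3 were 2-fold in distal dKO in place of 2. There Hoxd12 was at -1.85, from a dKO signal below the array median. With a mean over probe sets 1 in place of 2 was 2-fold between the control parts, Hoxd13 being at 0.80 once its probe set below the floor enters. The limma count for dKO, 2, was 1 with the floor at the 25th percentile (Hoxd1 adjusted p = 0.0567), 1 with no floor, 1 among genes above the floor on at least 3 arrays, where Hoxd1 was not tested, and 4 without the RA arrays. The count for RA, 0, was 2 without the dKO arrays and 1 without the proximal RA array. The count for position, 0, was 3 without the dKO arrays and 2 without the RA arrays. Fits without arrays have 1 residual degree of freedom and call many more genes (1447 for dKO without the RA arrays, where the full fit calls 283). Fitted probe set by probe set, an alternative chosen after seeing the data, Hoxd11 (adjusted p = 0.0224) and Hoxd1 (0.0235, with the same floors) passed in dKO. No paired analysis was possible because the labels give no replicate numbers and each group has 1 array, beyond the additive fit itself, in which part is a block for condition and condition for part.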

Other observations

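Hoxd3os1, a long noncoding RNA listed across the 5' end of Hoxd3 on the opposite strand and named here after its values were seen, had signals of 1209 and 1533 in distal and proximal dKO, 1639 and 1308 in RA, and 1031 and 1437 in control. It was higher distally than proximally only in RA (log2 0.33, against -0.34 in dKO and -0.48 in control). Its second probe set did not show that: it was higher distally in dKO (0.39) and RA (0.36) and lower in control (-0.25). Neither set passed limma for dKO (adjusted p = 0.975 and 0.973) or for RA (0.546 and 0.324).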
